A study of Homo sapiens with 24 samples.

Results

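The genes described here are 38 interferon-stimulated and MHC class I genes, a list of named genes that make up an antiviral and antigen presentation module. The rule for membership uses the gene names and no measured value, although the list was drawn up with earlier results of these data known. All 38 were found among the 60675 Ensembl identifiers of the count table by symbol. They comprise 4 IFIT proteins, 4 genes of the ISG15 system, 4 OAS enzymes, 12 antiviral effectors including the MX GTPases, 2 RNA sensors, 4 transcription factors, 2 PARP proteins and 6 genes of MHC class I and its peptide supply. Expression was measured by sequencing of rRNA-depleted RNA from MIA PaCa-2 cells, an established human pancreatic carcinoma line. C/EBPδ-inducible cells carry a Tet-On construct with which doxycycline switches on a CEBPD cDNA, and CTRL cells carry the vector without that cDNA. Both lines were sampled at 0, 8, 24 and 48 h of doxycycline at 2 µg/mL, with 3 replicate wells per group, 8 groups and 24 libraries. The labels give that dose for the 0 h wells as well, whereas the study's methods describe them as untreated, and they were taken as untreated here. The inducible cells are a pool of selected clones and differ from CTRL cells in their fluorescent reporter too, so that clone, vector and CEBPD expression before doxycycline cannot be told apart in a comparison of the lines.

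Interferons are secreted antiviral signals. Type I and type III interferons act through receptors, the kinases JAK1 and TYK2 and a complex that contains STAT2 and IRF9 and binds interferon-stimulated response elements (ISREs) in the promoters of target genes, whereas interferon gamma acts at gamma-activated sites (GAS). Many of these targets can also be switched on by IRF1 and related factors without interferon, and carcinoma cells vary widely in how much of the program they express in culture. MHC class I molecules present peptides from inside the cell to T cells, and their genes respond to interferon, NF-κB and the class I activator NLRC5.

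The promoters show how far the members share the response element. RefSeq promoter windows (GRCh38.p14) of 300 bases, from 250 bases before to 50 after the start of a gene, matched 32 of the 38 members by symbol. IFIT2, USP18, OAS2, OASL, MX2 and IRF7 had no matched entry. The core of an ISRE, written as GAAA, any 2 bases and GAAA, was searched on both strands and occurred in 20 of the 32 windows (62.5%), against 3.65% of all 27305 windows of this length. TTCNNNGAA, the GAS letters (N is any base), occurred in 8 member windows (25%) against 7.88% of all. TTGCNNAA, letters of a C/EBP site, occurred in 2 member windows (HERC6 and OAS1, 6.25%) against 10.6% of all. A match is a description of letters, and the absence of a match says only that these letters are not in this window. The 7 windows of 100 bases below were chosen because these members were higher in inducible cells at every time (IFIT3 and ISG15), changed sides between the lines over time (IFIT1 and PARP14), or were lower at every time (ISG20, PARP9 and PSMB8). They run 5′ to 3′ on the strand of the gene, and capitals mark ISRE letters on either strand.
IFIT3, chr10:89327831-89327930, plus strand: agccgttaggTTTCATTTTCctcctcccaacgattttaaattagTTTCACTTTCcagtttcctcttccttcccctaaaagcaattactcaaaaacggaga
ISG15, chr1:1013374-1013473, plus strand: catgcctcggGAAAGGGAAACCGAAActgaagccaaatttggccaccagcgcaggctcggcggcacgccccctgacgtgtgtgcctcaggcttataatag
IFIT1, chr10:89392497-89392596, plus strand: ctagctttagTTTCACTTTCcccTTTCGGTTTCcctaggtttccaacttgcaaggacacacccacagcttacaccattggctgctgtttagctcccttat
PARP14, chr3:122680739-122680838, plus strand: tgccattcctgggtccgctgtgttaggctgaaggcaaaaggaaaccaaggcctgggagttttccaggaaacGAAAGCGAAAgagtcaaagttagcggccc
ISG20, chr15:88638916-88639015, plus strand: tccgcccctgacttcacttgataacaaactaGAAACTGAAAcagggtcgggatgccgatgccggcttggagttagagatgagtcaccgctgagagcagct
PARP9, chr3:122564785-122564884, minus strand: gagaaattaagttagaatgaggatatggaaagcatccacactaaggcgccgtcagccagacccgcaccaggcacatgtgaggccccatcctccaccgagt
PSMB8, chr6:32844680-32844779, minus strand: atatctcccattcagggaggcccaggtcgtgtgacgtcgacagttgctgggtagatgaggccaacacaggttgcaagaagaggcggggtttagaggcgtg
IFIT3, ISG15 and IFIT1 each had 2 matches, and those of ISG15 overlap each other. PARP14 and ISG20 had 1 match, and the full windows of PARP9 and PSMB8 had none. Of the 10 members that were higher in inducible cells at all 4 times, 7 had a window and 4 of these had an ISRE match. Of the 3 members that were lower at all 4 times, all had a window and 1 had a match, and of the other 25 members, 22 had a window and 15 had a match. The ISRE letters were thus found among members on both sides of the comparison of the lines.

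The libraries held between 12731237 and 22598595 counts, with a median of 18959363.5. CEBPD itself was at 4.20, 3.72 and 3.91 CPM (counts scaled to library size with TMM factors) in CTRL cells and at 18.9, 23.3 and 22.2 CPM in inducible cells at 0 h, and at 24 h it reached 320, 302 and 301 CPM in inducible cells. Markers of other cell types were low, with 6 immune markers summing to between 2.12 and 20.1 CPM per library. The highest was replicate 2 of CTRL cells at 48 h, which had 311 counts of LYZ. PTPRC, CD3E and CD79A had at most 7 counts in any library, and CD14 at most 27. ITGAM differed between the lines, with between 3 and 15 counts in CTRL libraries and between 22 and 54 in inducible libraries. The 5 fibroblast markers summed to at most 1.99 CPM in CTRL and 4.97 CPM in inducible libraries, and the 3 endothelial markers to at most 0.417 and 2.71 CPM. The 5 epithelial markers (KRT8, KRT18, KRT19, EPCAM and CDH1) summed to between 2060 and 2960 CPM in CTRL libraries and between 114 and 207 CPM in inducible libraries. These sums are mostly KRT8, KRT18 and KRT19, and EPCAM had at most 43 counts in any library. CDH1 had 19, 25 and 11 counts in CTRL and 0, 3 and 4 in inducible cells at 0 h. At 8 h it was higher in inducible cells instead, with 84, 70 and 79 counts against 3, 18 and 16. The lines thus differed in genes besides those described here. Every library also held a few genes that its own group lacked. Between 1 and 18 genes per library had at least 15 counts where the other 2 libraries of the group had at most 1, and IFI44L in replicate 3 of inducible cells at 48 h was the 1 member among them. Replicate 3 of CTRL cells at 0 h and at 24 h shared 10 such genes, among them CD74 and S100A8, and replicate 2 of CTRL cells at 8 h and 48 h shared 6, among them MUC5B and GPX2 (these examples were picked after seeing the values). The largest differences between libraries of the same group were at 8 h. Per gene with at least 20 counts in a pair, the chi-square between replicates was 12.3 and 12.5 for inducible replicate 3 at 8 h against replicates 1 and 2, which differed by 2.34, and 16.7 for CTRL replicates 1 and 3 at 8 h, whereas it lay between 1.66 and 8.36 in the other 6 groups. Members with few counts are therefore given with every library, and the comparisons were repeated on replicates 1 and 2 alone.

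Per length of transcript, B2M, the light chain of class I molecules, had the highest level of the members, with a mean of 136 CPM per kb over the 24 libraries. HLA-B followed with 35.2, HLA-C with 12.3, TAP1 with 9.81 and STAT2 with 7.23 CPM per kb. The lowest were IFI44L at 0.0385, IRF7 at 0.0586 and SAMD9L at 0.0693 CPM per kb, and the median member was at 1.24 CPM per kb. Without regard to length, 10 members had a mean over 10 CPM and 11 a mean under 1 CPM, where 3 counts in a library correspond to between 0.132 and 0.23 CPM. MX2 and TRIM21, a GTPase and an antibody receptor, were nearly even, between 14.8 and 20.4 CPM and between 4.44 and 7.44 CPM in the 24 libraries. In contrast, OASL ranged from 0.181 to 9.37 CPM. The summed level of the 38 members was 412.4 ± 7.63 CPM (SD, n = 3) in CTRL and 419.6 ± 10.6 CPM (SD, n = 3) in inducible cells at 0 h. At 48 h, it was 519.2 ± 4.51 CPM (SD, n = 3) and 431.3 ± 6.80 CPM (SD, n = 3), respectively. B2M made up most of this difference, with 159, 179 and 170 CPM in CTRL and 89.5, 96.8 and 93.7 CPM in inducible cells. The sum therefore does not describe the members as a set. In bulk RNA, fewer cells that express a gene and less RNA per cell cannot be told apart, which applies to each value below.

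**Figure D1:**
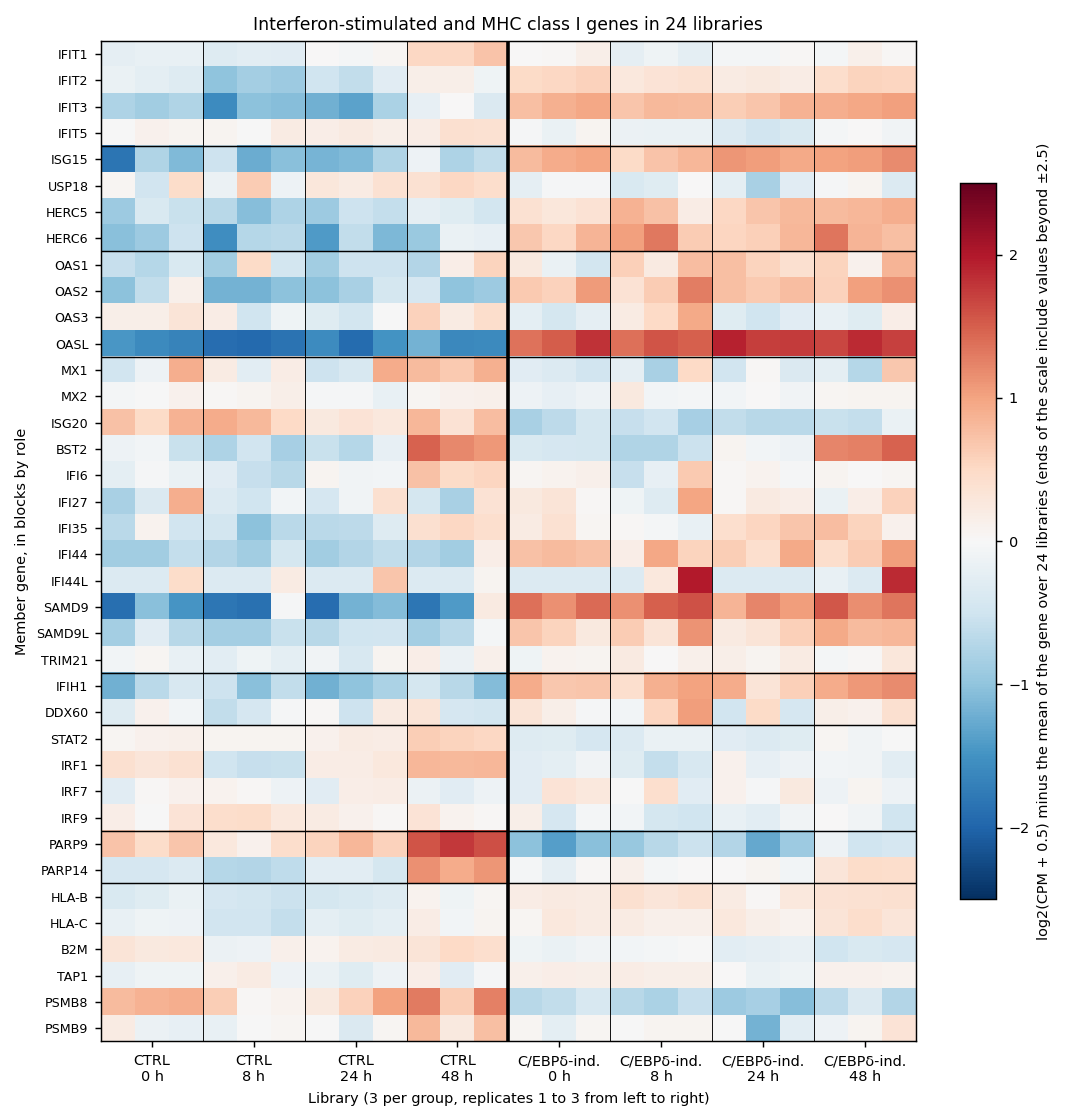
Each row is a member, in blocks by role, and each column a library, with CTRL cells left and C/EBPδ-inducible cells right of the thick line; colour gives log2(CPM + 0.5) minus the mean of the gene over 24 libraries. OASL, ISG15 and IFIT3 are higher in all 12 libraries of inducible cells, PSMB8 is lower, and IFI44L stands out in replicate 3 of inducible cells at 8 h and 48 h.

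The first comparison asked how the lines differed at each time. At 24 h, the time the study analysed, 35 of the 38 members passed the filter on low counts, and 24 of these were called at a false discovery rate of 0.01 with edgeR's quasi-likelihood test and Benjamini-Hochberg adjustment. Of these, 16 were higher and 8 lower in inducible cells. Among all 15700 genes tested at 24 h, 47.8% were called, with 22.1% higher and 25.7% lower. The members tested had a median log2 fold change of 0.30, against 0.0080 for all genes (the genes at the floor in CTRL cells lie above the median with their fitted values and with their bounds), and 12 of the 16 higher and 3 of the 8 lower members differed more than 2-fold. The share of all genes beyond 2-fold was not counted. The median absolute log2 fold change was 0.71 for the members tested and 0.26 for all genes. At 0 h, before doxycycline, 15 members were higher and 7 lower of 32 tested, against 45.3% of all genes called (20.8% higher and 24.5% lower). At 8 h, the counts were 12 higher and 4 lower of 32 tested (32.5% of all genes called, 14.7% higher and 17.9% lower), and at 48 h they were 10 higher and 10 lower of 34 tested (38.5% of all genes called, 17.8% higher and 20.8% lower). Low members such as IFI44, OAS2 and SAMD9L passed the filter through their counts in inducible cells, so that their presence among the calls follows in part from the filter. At 8 h, 13 were higher and 3 lower without inducible replicate 3, 15 and 4 without CTRL replicate 1 and 15 and 5 without CTRL replicate 3. The comparisons at the 4 times share no library.

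Of the 31 members tested at every time, 10 were higher in inducible cells at all 4 times, namely IFIT2, IFIT3, ISG15, HERC5, HERC6, OAS2, OASL, SAMD9L, IFIH1 and HLA-B. ISG20, PARP9 and PSMB8 were lower at all 4 times. Together these are 13 of 31 (41.9%), where 22.4% of 14802 genes tested at every time were called in 1 direction throughout. HERC5, HERC6, OAS2, OASL, SAMD9L and IFIH1 had at most 17 counts in any CTRL library, and PSMB8 at most 12 in any inducible library. These members passed the filter mainly through the line where they are higher, so the share of the members follows in part from the filter. Leaving out any single library changed 1 of these calls, that of PSMB8 at 8 h. With replicates 1 and 2 alone, IFIT2 (0.35, edgeR BH-adjusted p = 0.032) and HLA-B (0.36, edgeR BH-adjusted p = 0.0116) lost their calls at 48 h and were then not called at all 4 times. IFIT1 and PARP14 were called in both directions at different times. MX1, MX2, BST2, IFI27, IFI44L, TRIM21, DDX60, IRF7 and PSMB9 were called at none of the times, of which IFI44L, DDX60 and IRF7 were never tested. BST2 and IFI27 were tested at some of the times only. Among the 14802 genes tested at every time, 139 were called in both directions and 5350 at none of the times.

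**Figure D2:**
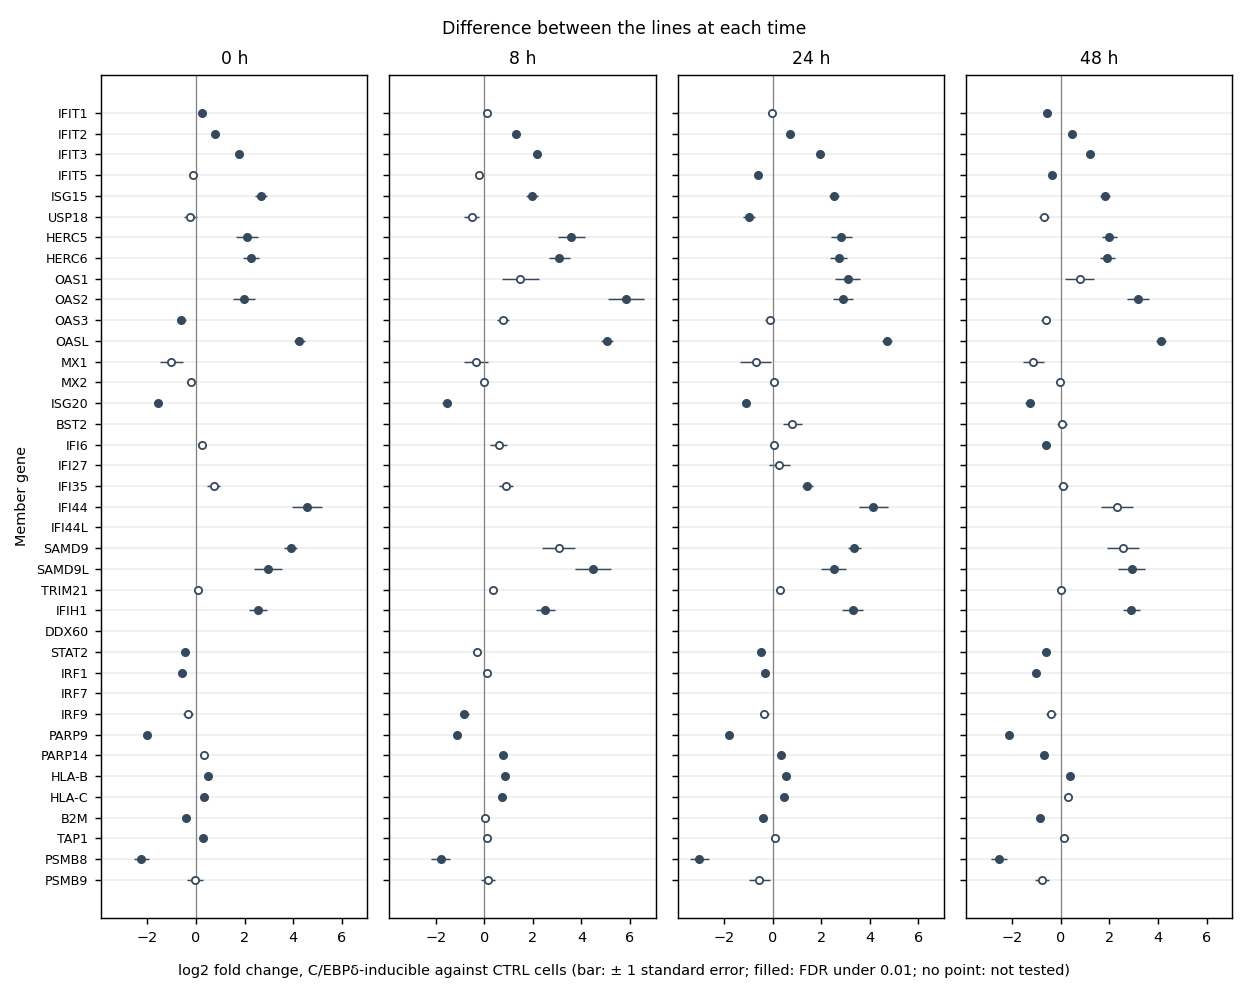
Points give the log2 fold change of inducible against CTRL cells for each member at 0, 8, 24 and 48 h, with bars of ± 1 standard error, filled where the adjusted p was under 0.01 and absent where the gene was not tested. OASL lies above 4 at each time and PSMB8 below −1.7, while PARP14 moves from positive at 8 h and 24 h to −0.69 at 48 h.

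The OAS family makes or resembles the synthetases that activate RNase L on double-stranded RNA, and OASL, its catalytically inactive member that acts on RNA sensing, showed the largest difference at 24 h. OASL was at 0.371, 0.185 and 0.427 CPM in CTRL cells and at 9.37, 8.18 and 8.29 CPM in inducible cells at 24 h. All 3 inducible libraries were far above the CTRL libraries, with a log2 fold change of 4.71 (standard error 0.21, edgeR BH-adjusted p = 1.1e-22). At 0 h, OASL was at 0.448, 0.36 and 0.313 CPM in CTRL and at 6.18, 6.92 and 8.64 CPM in inducible cells, and the log2 fold change was 4.25 (standard error 0.23, edgeR BH-adjusted p = 5.53e-17). The difference was therefore present before doxycycline, and no time point within inducible cells was called for OASL. OAS2, a synthetase, was at 1, 3 and 7 counts in CTRL and at 28, 27 and 32 counts in inducible cells at 24 h, which gave a log2 fold change of 2.90 (standard error 0.41, edgeR BH-adjusted p = 7.46e-08). Without CTRL replicate 3, its log2 fold change was 3.72. At 0 h, OAS2 had 1, 4 and 14 counts in the CTRL libraries against 24, 26 and 33, and its log2 fold change of 1.99 became 3.23 without CTRL replicate 3. At 8 h, its CTRL libraries were at the floor with 0, 0 and 1 counts, and inducible cells were at least 8.88-fold higher (fitted log2 fold change 5.82, and 7.66 without CTRL replicate 3, neither of which is a bound). At 48 h, its log2 fold change of 3.17 became 4.20 without CTRL replicate 1.

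OAS1 and OAS3, the other synthetases, behaved differently. OAS1 had 0, 3 and 3 counts in CTRL and 21, 18 and 16 counts in inducible cells at 24 h, so that the CTRL libraries were at the floor and inducible cells were at least 5.94-fold higher (edgeR BH-adjusted p = 2.7e-06). It was not called at 8 h, with 0, 13 and 3 counts in CTRL and 17, 11 and 14 in inducible cells. At 48 h, with 1, 9 and 16 counts against 15, 11 and 20, it was not called either. OAS3 was lower at 0 h by a log2 fold change of −0.61, a call lost without CTRL replicate 3 (−0.54, edgeR BH-adjusted p = 0.0309), without inducible replicate 2 (−0.53, edgeR BH-adjusted p = 0.0292) and with DESeq2, and it was not called at the other times.

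In the ISG15 system, ISG15 is the ubiquitin-like protein itself, HERC5 the ligase that attaches it to other proteins, HERC6 a related ligase and USP18 the protease that removes it. ISG15 was at 0.743, 0.785 and 1.14 CPM in CTRL and at 5.44, 5.18 and 4.81 CPM in inducible cells at 24 h, with a log2 fold change of 2.52 (standard error 0.19, edgeR BH-adjusted p = 5.94e-15). HERC5 had 1, 5 and 4 counts in CTRL and 20, 25 and 30 counts in inducible cells (log2 fold change 2.82, standard error 0.43, edgeR BH-adjusted p = 2.88e-07). HERC6 had 2, 12 and 5 counts against 37, 41 and 53 (log2 fold change 2.72, standard error 0.34, edgeR BH-adjusted p = 4.86e-09), and 3.51 without CTRL replicate 2. The libraries of the lines did not overlap for these 3 genes at 24 h. Their log2 fold changes were also positive and called at 0 h (2.66 for ISG15, 2.09 for HERC5 and 2.27 for HERC6), at 8 h (1.97, 3.57 and 3.08) and at 48 h (1.81, 1.99 and 1.91). At 8 h, HERC5 was at the floor in CTRL cells, and inducible cells were at least 6.73-fold higher. USP18 went the other way at 24 h, with 1.86, 1.76 and 2.04 CPM in CTRL and 1.15, 0.618 and 1.11 CPM in inducible cells (log2 fold change −0.96, edgeR BH-adjusted p = 0.00131), but the call was lost without inducible replicate 2 (−0.73, edgeR BH-adjusted p = 0.0202) and with DESeq2. Of the 50-base stretches of its transcript, 52.9% also occur in other genes such as USP41, so that its counts are uncertain.

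The IFIT proteins, which bind foreign RNA, form a cluster on chromosome 10 in which neighbours differed in direction. IFIT3 was at 3.02, 2.68 and 4.13 CPM in CTRL and at 11.8, 12.5 and 14.2 CPM in inducible cells at 24 h (log2 fold change 1.97, standard error 0.12, edgeR BH-adjusted p = 9.79e-18). IFIT2 was at 11.3, 10.3 and 13.1 CPM against 18.7, 19.2 and 18.5 CPM, a smaller difference (log2 fold change 0.71, edgeR BH-adjusted p = 7.88e-10). IFIT5, in contrast, was at 27.9, 29.0 and 27.5 CPM in CTRL and at 19.3, 17.6 and 18.9 CPM in inducible cells, and was thus lower (log2 fold change −0.59, standard error 0.065, edgeR BH-adjusted p = 2.14e-10). None of these groups overlapped. For IFIT1, the libraries at 24 h overlapped, with 20.2, 19.5 and 20.9 CPM in CTRL and 19.5, 19.4 and 20.6 CPM in inducible cells, and the gene was not called. All 4 genes lie within chr10:89283694-89421605 (GRCh38). Exons of IFIT2 overlap LIPA on the other strand and an unnamed gene on the same strand, over 13.6% of their bases. Those of IFIT3 overlap LIPA over 1.86%.

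Among the antiviral effectors and sensors, SAMD9, SAMD9L, IFI44, IFI35 and IFIH1 were higher in inducible cells at 24 h. SAMD9, a translation-blocking restriction factor, had 2, 11 and 12 counts in CTRL and 72, 101 and 94 counts in inducible cells (log2 fold change 3.36, standard error 0.27, edgeR BH-adjusted p = 2.3e-14). At 0 h, its log2 fold change of 3.90 became 4.52 without CTRL replicate 2. Its inducible libraries stayed between 72 and 114 counts at all 4 times, whereas CTRL replicate 3 had 31 counts at 8 h and 41 counts at 48 h beside at most 6 in replicates 1 and 2. SAMD9 was not called at 8 h and 48 h with all libraries and was called higher at both times with replicates 1 and 2 alone (log2 fold changes 5.2 and 4.41, edgeR BH-adjusted p = 3.8e-09 and 1.58e-06). SAMD9L, its neighbour on chromosome 7, had 1, 3 and 3 counts in CTRL and 11, 13 and 19 in inducible cells at 24 h, at least 4.57-fold higher. Leaving out single CTRL libraries moved its log2 fold change from 2.98 to 4.55 at 0 h (without replicate 2), from 4.46 to 7.09 at 8 h (without replicate 3; CTRL cells were at the floor there with 0, 0 and 2 counts, and inducible cells at least 5.98-fold higher) and from 2.92 to 2.3 (without replicate 1) and 5.06 (without replicate 3) at 48 h, with the call kept. IFI44 had 0, 1 and 2 counts in CTRL and 18, 15 and 28 counts in inducible cells at 24 h, at least 6.49-fold higher (edgeR BH-adjusted p = 6.9e-08), and at 0 h it was at least 6.17-fold higher. Its log2 fold changes of 4.57 at 0 h and 4.14 at 24 h became 7.28 and 4.97 without CTRL replicate 3. IFIH1, the cytoplasmic sensor MDA5, had 1, 3 and 5 counts against 39, 23 and 32 (log2 fold change 3.30, standard error 0.43, edgeR BH-adjusted p = 1.04e-08). At 0 h, its log2 fold change of 2.55 became 3.21 without CTRL replicate 3. IFI35 was at 0.902, 0.924 and 1.28 CPM in CTRL and at 2.49, 2.76 and 3.12 CPM in inducible cells (log2 fold change 1.43, edgeR BH-adjusted p = 4.77e-07), and it was called at no other time.

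Some further effectors and the sensor DDX60 had few counts, and in several groups replicate 3 held most of them (they are named after their values were seen). IFI44L, the paralogue next to IFI44, had 0 counts in 16 of 24 libraries. In inducible cells it had 0, 5 and 26 counts at 8 h and 1, 0 and 31 counts at 48 h, whereas all 6 inducible libraries at 0 h and 24 h had 0. In CTRL cells, replicates 1 and 2 had 0 counts at every time and replicate 3 had 7, 4, 11 and 3 counts at 0, 8, 24 and 48 h. MX1, the GTPase that traps viral nucleocapsids, had 8, 12 and 38 counts in CTRL cells at 0 h and 8, 11 and 43 counts at 24 h, but 36, 27 and 37 counts at 48 h, where the libraries were alike. IFI27 had 0, 3 and 22 counts in CTRL cells at 0 h, and DDX60 at most 18 counts in any library. At 0 h and 24 h, the CTRL library with the most MX1 and IFI27 counts was replicate 3, and these libraries share the 10 genes absent from replicates 1 and 2, and whether their counts have the same origin was not tested. No difference between the lines was called for MX1, IFI27, IFI44L or DDX60.

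**Figure D3:**
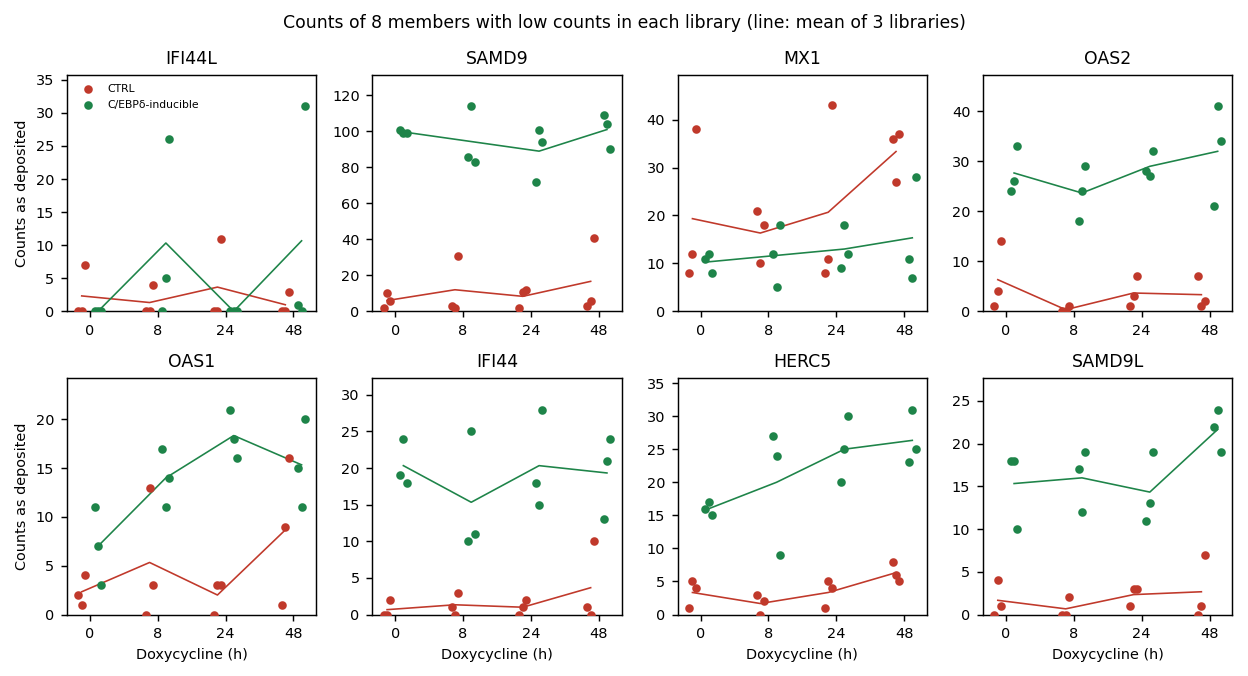
Counts as deposited of 8 members with few counts, with 1 point per library and lines through the means of 3 libraries, against hours of doxycycline. SAMD9, OAS2, IFI44, HERC5 and SAMD9L have a band of inducible libraries above most CTRL libraries at every time, whereas IFI44L in inducible cells at 8 h and 48 h and MX1 in CTRL cells at 0 h and 24 h have most of their counts in replicate 3.

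Members that were lower in inducible cells included a proteasome subunit, a PARP protein, an RNase and transcription factors. PSMB8, a catalytic subunit of the immunoproteasome that cuts peptides for class I molecules, was at 1.06, 1.48 and 2.14 CPM in CTRL and at 0.199, 0.238 and 0.134 CPM in inducible cells at 24 h. No inducible library at any time exceeded 0.528 CPM and no CTRL library was below 0.845 CPM, and the log2 fold change at 24 h was −3.01 (standard error 0.40, edgeR BH-adjusted p = 1.55e-08). At 8 h, the log2 fold change of −1.79 lost its call without CTRL replicate 1 (−1.45, edgeR BH-adjusted p = 0.0117), without inducible replicate 1 (−1.79, edgeR BH-adjusted p = 0.0129) or without inducible replicate 2 (−1.65, edgeR BH-adjusted p = 0.0182). PSMB9, the subunit encoded beside PSMB8, was not called at any time, and inducible replicate 2 at 24 h had 2 counts of it beside 17 and 14. Exons of PSMB8 overlap PSMB8-AS1 and PSMB9 on the other strand over 17.3% of their bases, and since the strand setting of the counting is not stated in the sources used here, these counts cannot be assigned to a strand.

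PARP9, which works with the ubiquitin ligase DTX3L in the interferon response, was at 8.33, 10.3 and 8.50 CPM in CTRL and at 3.14, 2.00 and 2.72 CPM in inducible cells at 24 h (log2 fold change −1.78, standard error 0.14, edgeR BH-adjusted p = 9.53e-15). It was also lower at 0 h (−2.01), 8 h (−1.11) and 48 h (−2.13). ISG20, an exonuclease of single-stranded RNA, was at 4.08, 4.44 and 4.18 CPM against 2.04, 1.90 and 1.92 CPM (log2 fold change −1.11, edgeR BH-adjusted p = 1.71e-07). STAT2, the interferon-specific STAT, was at 33.9, 36.0 and 35.6 CPM in CTRL and at 25.5, 24.5 and 25.2 CPM in inducible cells (log2 fold change −0.48, standard error 0.058, edgeR BH-adjusted p = 1.49e-09). IRF1, an activator of many of these genes, was at 13.3, 13.4 and 14.2 CPM against 12.6, 10.1 and 10.6 CPM (log2 fold change −0.30, edgeR BH-adjusted p = 0.00419), a call lost without CTRL replicate 3 (−0.27, edgeR BH-adjusted p = 0.0243), without inducible replicate 2 (−0.24, edgeR BH-adjusted p = 0.0323) or 3 (−0.25, edgeR BH-adjusted p = 0.0353) and with DESeq2. At 48 h, the difference in IRF1 was larger, with 21.1, 21.0 and 21.1 CPM in CTRL and 11.1, 10.9 and 9.59 CPM in inducible cells (log2 fold change −1.01, edgeR BH-adjusted p = 1.61e-07). IRF9, the DNA-binding partner of STAT2, was at 3.08, 2.86 and 2.66 CPM against 2.24, 2.09 and 2.41 CPM at 24 h and was called at 8 h alone (log2 fold change −0.82), a call lost without CTRL replicate 2 (−0.79, edgeR BH-adjusted p = 0.0158) and without inducible replicate 2 (−0.74, edgeR BH-adjusted p = 0.0228) or 3 (−0.75, edgeR BH-adjusted p = 0.0157). IRF7, the amplifier of interferon production, had at most 6 counts in any library and was not tested. Of the 50-base stretches of IRF9, 92.8% also occur in an overlapping annotated gene, and IRF1 overlaps IRF1-AS1 on the other strand, so that both counts may hold reads of those genes.

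The class I genes were split. HLA-B, a heavy chain, was at 38.8, 40.2 and 42.4 CPM in CTRL and at 60.7, 54.0 and 63.9 CPM in inducible cells at 24 h (log2 fold change 0.56, standard error 0.051, edgeR BH-adjusted p = 1.51e-12). HLA-C, a second heavy chain, was at 15.5, 15.0 and 15.6 CPM against 22.5, 20.7 and 19.8 CPM (log2 fold change 0.46, edgeR BH-adjusted p = 9.15e-07). B2M, the light chain that every class I molecule needs, was lower instead, at 135, 145 and 148 CPM in CTRL and at 105, 108 and 111 CPM in inducible cells (log2 fold change −0.39, standard error 0.037, edgeR BH-adjusted p = 3.71e-12). The groups did not overlap for any of the 3 genes. B2M was lower in inducible cells at 0 h (−0.40), 24 h and 48 h (−0.87) and not called at 8 h, where the libraries overlapped. TAP1, a subunit of the peptide transporter, was at 23.4, 21.1 and 24.0 CPM in CTRL and at 26.2, 23.3 and 24.4 CPM in inducible cells at 24 h, without a call, and was higher in inducible cells at 0 h alone (log2 fold change 0.28, edgeR BH-adjusted p = 0.000214). HLA-C at 0 h (log2 fold change 0.32) lost its call without inducible replicate 2 (0.26, edgeR BH-adjusted p = 0.0105). HLA-C shares 6.76% of its 50-base stretches with other genes such as HLA-H, so that some of its reads may belong to them. For HLA-B, 47.3% of the exon bases overlap annotated genes outside class I (DHFRP2, MIR6891 and an unnamed gene on the other strand), and 2.56% of its 50-base stretches occur elsewhere. Exons of TAP1 overlap PSMB8-AS1 on the other strand over 14.2% of their bases.

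**Figure D4:**
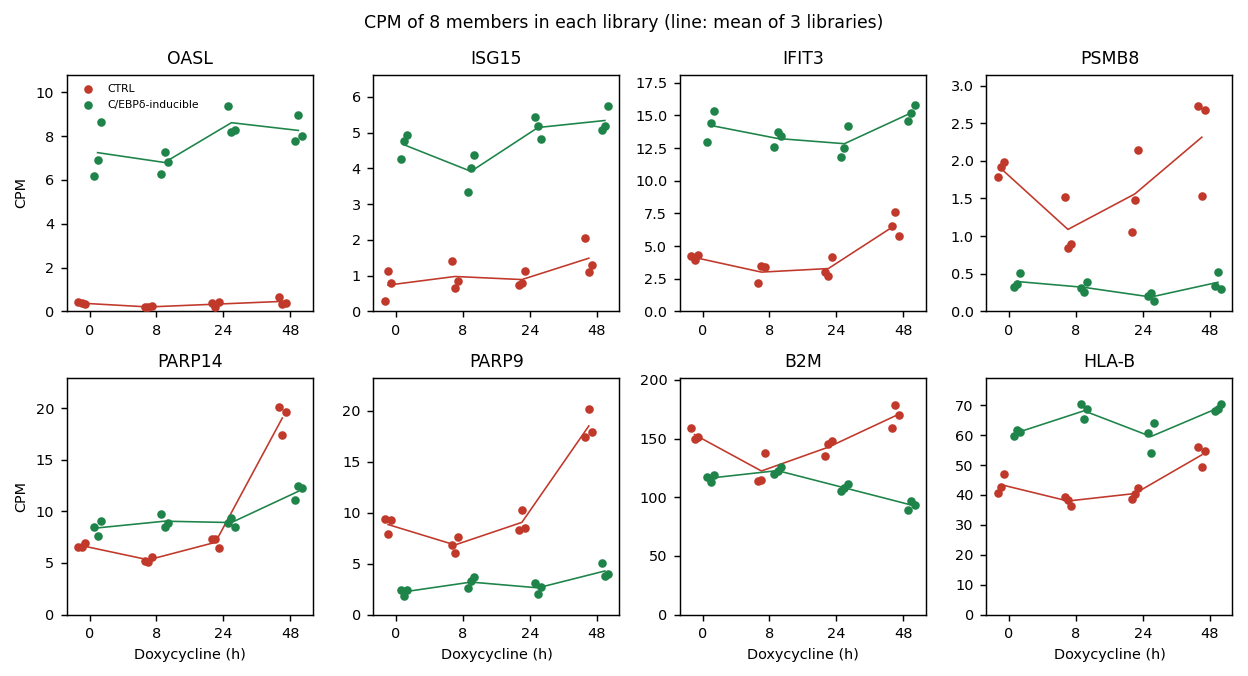
CPM of 8 members in each library against hours of doxycycline, with 1 point per library and lines through the means of 3 libraries; each panel has its own axis from 0. OASL, ISG15 and IFIT3 are higher and PSMB8 and PARP9 lower in inducible cells at all times, and CTRL cells pass inducible cells for PARP14 at 48 h, when they reach 17.4 to 20.1 CPM.

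The second comparison followed each line over time. In CTRL cells, none of 25 members tested was called by edgeR's quasi-likelihood test between 0 and 24 h, whereas 7.15% of all genes were called (3.36% higher and 3.79% lower). At an unadjusted p below 0.05, 7 of the 25 passed, as did 24.6% of all genes, and DESeq2 called 0. At 8 h, IFIT2 and IRF1 were lower than at 0 h in CTRL cells, 2 of 24 members tested against 2.09% of all genes (1.08% higher and 1.01% lower), and 4 members were lower without CTRL replicate 1 at 8 h and 3 without replicate 3. IRF1 fell from 15.5, 14.6 and 15.4 CPM to 8.07, 7.66 and 7.81 CPM (log2 fold change −0.92, standard error 0.093, edgeR BH-adjusted p = 0.00011). IFIT2 was at 14.3, 13.5 and 12.8 CPM at 0 h and at 7.78, 8.75 and 8.32 CPM at 8 h (log2 fold change −0.69, edgeR BH-adjusted p = 0.00155), a call lost without CTRL replicate 1 (−0.64, edgeR BH-adjusted p = 0.0154) or 2 (−0.69, edgeR BH-adjusted p = 0.0127) at 0 h.

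At 48 h, 10 of 26 members tested were higher in CTRL cells than at 0 h and none was lower (38.5%), against 31.0% of all genes called, with 15.6% higher and 15.3% lower. The median log2 fold change of the members tested was 0.47, against 0.0088 for all genes, and 0.30 without CTRL replicate 2 at 0 h. BST2, the tetherin that holds virions on the cell surface, rose from 12, 12 and 7 counts to 62, 42 and 42 counts (log2 fold change 2.15, standard error 0.29, edgeR BH-adjusted p = 2.96e-05). PARP14, a mono-ADP-ribosyltransferase, rose from 6.55, 6.54 and 6.94 CPM to 20.1, 17.4 and 19.6 CPM (log2 fold change 1.51, standard error 0.10, edgeR BH-adjusted p = 4.62e-08). PARP9 rose from 9.35, 7.86 and 9.28 CPM to 17.4, 20.2 and 17.9 CPM (log2 fold change 1.06, edgeR BH-adjusted p = 1.42e-06). For these genes all libraries at 48 h were above all at 0 h. IFIT1 (0.79), IFI6 (0.82), IFI35 (0.99), IFIT3 (0.67), IRF1 (0.48), STAT2 (0.47) and HLA-B (0.30) were also higher, in log2 fold change. IFI35 lost its call without replicate 1 or 3 at 0 h or replicate 2 or 3 at 48 h, and HLA-B without replicate 1 or 2 at 0 h or replicate 3 at 48 h, with log2 fold changes between 0.77 and 1.00 for IFI35 and between 0.23 and 0.28 for HLA-B in those fits, and with replicates 1 and 2 alone 5 members were called. The HLA-B call was also lost with the replicate number as a block (edgeR BH-adjusted p = 0.0124).

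In inducible cells at 8 h, 3 of 34 members tested were called, against 32.4% of all genes (15.6% higher and 16.8% lower). OAS3 was higher than at 0 h, with 2.24, 1.91 and 2.3 CPM at 0 h and 3.25, 4.12 and 5.76 CPM at 8 h (log2 fold change 1.00, edgeR BH-adjusted p = 4.56e-05), HLA-B was higher by a log2 fold change of 0.17 and IFIT1 lower by −0.24. The HLA-B call was lost with 1 model of all 24 libraries (0.18, edgeR BH-adjusted p = 0.0212) and with replicates 1 and 2 alone (0.16, edgeR BH-adjusted p = 0.0153). Replicate 3 of inducible cells at 8 h, which held 26 counts of IFI44L, had the highest OAS3 value, and with replicates 1 and 2 alone OAS3 was called with a log2 fold change of 0.83 (edgeR BH-adjusted p = 0.00258). The IFIT1 call was lost without replicate 2 or 3 at 0 h or replicate 1 or 3 at 8 h, with log2 fold changes between −0.20 and −0.25. At 24 h, 3 of 35 members were called, against 16.4% of all genes (7.78% higher and 8.64% lower), and all 3 were lower. IFIT5 fell from 24.1, 22.0 and 26.0 CPM to 19.3, 17.6 and 18.9 CPM (log2 fold change −0.37, edgeR BH-adjusted p = 0.000144) and IFIT2 from 22.6, 23.2 and 24.4 CPM to 18.7, 19.2 and 18.5 CPM (−0.32, edgeR BH-adjusted p = 0.000445). TAP1 was at 28.8, 29.5 and 28.9 CPM at 0 h and at 26.2, 23.3 and 24.4 CPM at 24 h (−0.24, edgeR BH-adjusted p = 0.00341), a call lost without replicate 2 or 3 at 0 h or at 24 h, at log2 fold changes between −0.21 and −0.25. None of the 3 was called with replicates 1 and 2 alone.

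At 48 h, 6 of 33 members were called in inducible cells (18.2%), against 39.4% of all genes (19.5% higher and 19.9% lower). BST2 rose from 9, 10 and 8 counts to 44, 58 and 53 counts (log2 fold change 2.51, standard error 0.27, edgeR BH-adjusted p = 3.31e-10), the same direction as in CTRL cells. PARP9 rose from 2.45, 1.82 and 2.41 CPM to 5.03, 3.78 and 4.01 CPM (log2 fold change 0.92, edgeR BH-adjusted p = 2.14e-05), PARP14 from 8.52, 7.56 and 9.09 CPM to 11.1, 12.4 and 12.3 CPM (0.50, edgeR BH-adjusted p = 3.99e-05) and STAT2 from 25.0, 25.1 and 23.2 CPM to 32.4, 29.3 and 31.2 CPM (0.32, edgeR BH-adjusted p = 4.77e-05). B2M was the 1 member that fell, from 117, 113 and 119 CPM to 89.5, 96.8 and 93.7 CPM (−0.34, standard error 0.038, edgeR BH-adjusted p = 4.63e-10). HLA-B was higher by a log2 fold change of 0.16, a call lost without inducible replicate 1 (0.16, edgeR BH-adjusted p = 0.0149) or 3 (0.16, edgeR BH-adjusted p = 0.0129) at 0 h or replicate 3 at 48 h (0.15, edgeR BH-adjusted p = 0.0141). Within each line, the 3 times share the 0 h libraries. Culture time and doxycycline changed together in both lines.

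**Figure D5:**
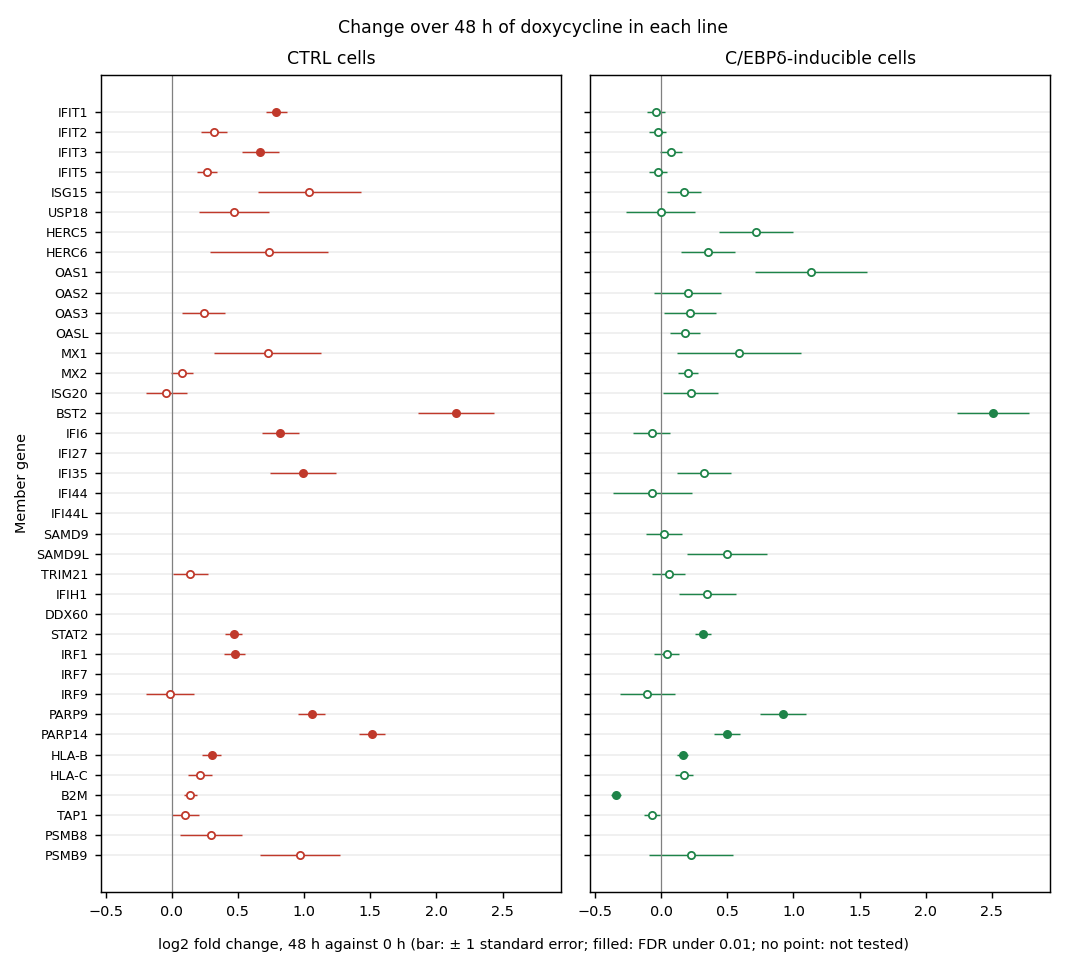
Points give the log2 fold change of 48 h against 0 h for each member tested in CTRL cells (left) and C/EBPδ-inducible cells (right), with bars of ± 1 standard error, filled where the adjusted p was under 0.01. BST2 exceeds 2 in both lines, PARP14 reaches 1.51 in CTRL and 0.50 in inducible cells, and B2M is below 0 in inducible cells alone.

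The third comparison asked whether a change over time differed between the lines, with an interaction term. At 48 h, 4 of 36 members passed, all with a lower change in inducible cells, against 6.05% of all genes (3.03% higher and 3.02% lower). PARP14 had the largest of these (−1.03 on the log2 scale, standard error 0.14, edgeR BH-adjusted p = 7.42e-06), so that it was lower in inducible than in CTRL cells at 48 h (−0.69) after being higher at 8 h (0.79) and at 24 h (0.35). The PARP14 call between the lines at 24 h was lost without CTRL replicate 3 (0.29, edgeR BH-adjusted p = 0.0334), without inducible replicate 2 (0.31, edgeR BH-adjusted p = 0.02) and with DESeq2. IFIT1 was at 28.9, 29.0 and 33.0 CPM in CTRL and at 19.5, 21.9 and 20.4 CPM in inducible cells at 48 h, after 17.2, 17.7 and 17.7 CPM and 20.2, 20.5 and 22.2 CPM at 0 h. Its interaction was −0.84 (standard error 0.11, edgeR BH-adjusted p = 3.64e-06). The higher level of IFIT1 in inducible cells at 0 h (log2 fold change 0.25) lost its call without CTRL replicate 1 (0.23, edgeR BH-adjusted p = 0.0112) or 3 (0.26, edgeR BH-adjusted p = 0.0107), without inducible replicate 3 (0.21, edgeR BH-adjusted p = 0.0276) and with DESeq2.

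B2M was at 159, 150 and 151 CPM in CTRL cells at 0 h and at 159, 179 and 170 CPM at 48 h, beside the fall in inducible cells, and its interaction at 48 h was −0.49 (standard error 0.063, edgeR BH-adjusted p = 4.74e-06). IFI6, a mitochondrial antiapoptotic protein, was at 3.25, 3.84 and 3.44 CPM at 0 h and at 6.90, 5.69 and 5.94 CPM at 48 h in CTRL cells. In inducible cells IFI6 was at 4.05, 4.19 and 4.32 CPM and at 4.12, 3.96 and 4.07 CPM, respectively (interaction −0.90, edgeR BH-adjusted p = 0.00166), and this call was lost with 1 model of all 24 libraries (−0.89, edgeR BH-adjusted p = 0.0314) and with replicates 1 and 2 alone (−0.90, edgeR BH-adjusted p = 0.0597). Of the 50-base stretches of IFI6, 21.9% also occur in the overlapping LINC02574. At 24 h, 1 of 36 members passed, against 6.55% of all genes (3.24% higher and 3.31% lower), namely IFIT5 (−0.48, edgeR BH-adjusted p = 0.000233), and it was not called with replicates 1 and 2 alone (−0.45, edgeR BH-adjusted p = 0.0259). At 8 h, 2 of 35 passed, against 2.10% of all genes (1.05% higher and 1.04% lower), namely IRF1 (0.70, edgeR BH-adjusted p = 0.00423) and B2M (0.40, edgeR BH-adjusted p = 0.00645). B2M was at 114, 115 and 138 CPM in CTRL and at 120, 122 and 126 CPM in inducible cells at 8 h. Both calls at 8 h were lost in most fits that left out 1 of the 12 libraries, IRF1 in 7 (edgeR BH-adjusted p up to 0.0234) and B2M in 10 (up to 0.0297). Without inducible replicate 3 at 8 h 0 members passed, without CTRL replicate 1 at 8 h 4 and without CTRL replicate 3 at 8 h 6.

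The other genes of the pathway, from lists set beside the members, were counted at 24 h between the lines. Of all genes tested there, 47.8% were called, with 22.1% higher and 25.7% lower. None of 21 interferon ligand genes passed the filter, and the highest count of any of them in any library was 7 (IFNL1). IFNL1 had 7, 5 and 2 counts in inducible cells at 48 h, against 0, 0 and 1 in CTRL cells. At 24 h, it had 1, 0 and 3 counts in inducible cells and 0 in each CTRL library. These counts are too few for a test of the lines. Of 6 receptor chains, 5 were tested, with 1 higher and 3 lower. IFNGR1, the ligand-binding chain for interferon gamma, was at 34.4 CPM in inducible and at 20.2 CPM in CTRL cells on average (log2 fold change 0.77, edgeR BH-adjusted p = 1.4e-14). IFNAR1, a chain of the type I receptor, differed by −0.16 (edgeR BH-adjusted p = 0.000209). Among the kinases and STATs, JAK2 was lower by −0.88 and STAT3 by −0.97. Of 15 sensors and adaptors, 10 were tested, with 4 higher and 4 lower. They included CGAS, the DNA sensor, with 56.8 against 19.8 CPM (log2 fold change 1.53, edgeR BH-adjusted p = 2.88e-26) and MAVS, the adaptor of IFIH1, with 173.1 against 294.0 CPM (−0.76, edgeR BH-adjusted p = 1.24e-23).

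Of 54 other interferon-stimulated genes, 35 were tested at 24 h, with 8 higher and 17 lower in inducible cells and a median log2 fold change of −0.24. The members tested had 16 higher, 8 lower and a median of 0.30, and 22.1% of all genes were higher and 25.7% lower. The largest differences upward were in RSAD2, CCL5, GBP2, APOBEC3G and BATF2. RSAD2, the antiviral viperin, had 0, 1 and 2 counts in CTRL and 34, 18 and 19 in inducible cells, and CCL5, a chemokine, had 3, 3 and 2 counts against 49, 53 and 68. GBP2, a GTPase, differed by a log2 fold change of 2.60, the deaminase APOBEC3G by 2.52 and BATF2 by 1.18. The largest downward were PLSCR1 (−3.77), IFITM2 (−2.34), IFITM3 (−2.11), IFITM1 (−1.46) and WARS1 (−1.43), of which the IFITM proteins block viral entry at membranes. IFITM3 was at 34.8 CPM on average in inducible and at 150.4 CPM in CTRL cells (edgeR BH-adjusted p = 1.49e-35). In CTRL cells, 16 of 32 genes of this list tested were higher at 48 h than at 0 h and 2 lower, where 15.6% of all genes were higher and 15.3% lower. In inducible cells 14 of 34 were higher and 3 lower, where 19.5% of all genes were higher and 19.9% lower. A further list held 20 other genes of class I and its peptide supply, among them CALR, PSME1 and ERAP1 besides class I chains. Of these, 19 were tested between the lines at 24 h, with 7 higher and 4 lower, where 47.8% of all genes were called (22.1% higher and 25.7% lower). NLRC5, the transactivator of class I genes, was at 7.98 against 3.97 CPM (log2 fold change 1.01, edgeR BH-adjusted p = 5.5e-09). At 48 h it was at 8.99 against 8.42 CPM and was not called, after a rise of 1.28 on the log2 scale within CTRL cells (edgeR BH-adjusted p = 1.68e-06). HLA-E, a nonclassical class I heavy chain, was higher at 24 h by 0.50 on the log2 scale (edgeR BH-adjusted p = 1.6e-13). NLRC5 and HLA-E are among the 7 higher genes, and other genes of the list went the other way. MICB had 134, 197 and 189 counts in CTRL and 35, 46 and 54 counts in inducible cells at 24 h.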

How the data were processed

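Total RNA of MIA PaCa-2 cells was depleted of rRNA and sequenced in 24 libraries. The authors trimmed the 50-base reads (Trimmomatic), mapped them against GRCh38 (HISAT2) and deposited raw HTSeq counts per gene. Versions given in the submitters' processing notes and in the study's methods differ and are left out, and the strand setting is not given in the sources used here. Libraries were grouped by the labels, and 0 columns were unassigned. From the deposited counts, each comparison was fitted on its own groups with edgeR 4.0.16 (R 4.3.3; TMM, filterByExpr, robust quasi-likelihood test, Benjamini-Hochberg adjustment over all genes tested) and called at a false discovery rate of 0.01. Standard errors were derived from the log2 fold change and F. Interaction terms used 4 groups. CPM values used TMM factors over all 24 libraries. A group with at most 3 counts in every library was treated as at the floor. Floors cover counting error only. Replicates are wells, so that p-values measure only the spread between these samples.

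Members and lists were chosen with earlier results of these data known. Members with full values were those called with at least a 2-fold difference between lines at 24 h (the 12 largest), the 5 largest in each direction within a line at 24 h and 48 h, those called in an interaction, and HLA-B, HLA-C, B2M, TAP1, STAT2, IRF1, IRF7 and IRF9. Other genes named were chosen after their values were seen. Coordinates come from GENCODE (GRCh38) and promoters from RefSeq (GRCh38.p14). Shared sequence was counted as 50-base stretches that occur in other genes. Same-numbered libraries were checked for pairing. On simulated counts of the 24 h comparison (15475 genes), 89.8% of 98 genes changed 2-fold were recovered, with 1 false call. For the interaction at 24 h (15900 genes), 72.6% of 106 such genes were recovered, with 0 false calls. In the data, 47.8% of genes were called between the lines at 24 h, a far larger part than was changed in the simulation. The error rate in that setting was not tested. Alternatives were DESeq2 1.42.0, no filter on low counts, a block for the replicate number, 1 joint model of the 24 libraries, each library left out, and, added after seeing the data, replicates 1 and 2 alone. Some genes of the surrounding pathway are not reported here.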

Additional observations from a re-analysis of the deposited data

Results flagged for a closer look

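The change over time differed between C/EBPδ-inducible and CTRL cells, by the interaction term in edgeR (quasi-likelihood test, Benjamini-Hochberg adjusted), for 7 combinations of a member and a time. The difference given is the log2 change in inducible cells minus that in CTRL cells. At 48 h against 0 h, it was −1.03 for PARP14 (adjusted p = 7.42e-06) and −0.90 for IFI6 (adjusted p = 0.00166). For IFIT1 it was −0.84 (adjusted p = 3.64e-06) and for B2M −0.49 (adjusted p = 4.74e-06). PARP14 rose in both lines, by 1.51 in CTRL and 0.50 in inducible cells. IFIT1 and IFI6 rose in CTRL cells (0.79 and 0.82) and were not called in inducible cells (−0.04 and −0.07). B2M fell in inducible cells (−0.34) and was not called in CTRL cells (0.14). At 24 h, the difference was −0.48 for IFIT5 (adjusted p = 0.000233), which fell in inducible cells. At 8 h, it was 0.70 for IRF1 (adjusted p = 0.00423), which fell in CTRL cells, and 0.40 for B2M (adjusted p = 0.00645), and both calls at 8 h depended on single libraries. The IFI6 call at 48 h was lost with 1 model of all 24 libraries (adjusted p = 0.0314) and with replicates 1 and 2 alone (adjusted p = 0.0597), as was that of IFIT5 at 24 h with replicates 1 and 2 (adjusted p = 0.0259). Dixon's test for outlying libraries was not run, since each group had 3.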

How the results depend on the processing

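No call named for a member reversed under any alternative, and calls were lost for 8 with DESeq2, for 6 with 1 model of all 24 libraries, for 24 with replicates 1 and 2 alone (an alternative chosen after seeing the data) and in 55 cases with 1 library left out. The members lower in CTRL cells at 8 h (2) were 5 with no filter and 4 with 1 model of all libraries. Those higher in CTRL cells at 48 h (10) were 5 with replicates 1 and 2. In inducible cells at 8 h, those higher (2) were 1 with 1 model and 1 with replicates 1 and 2, and those lower (1) were 0 with DESeq2, with 1 model and with replicates 1 and 2. Those lower in inducible cells at 24 h (3) were 0 with replicates 1 and 2. The interaction at 8 h (2 higher) had 7 with no filter, 5 with 1 model and 1 with replicates 1 and 2, and that at 24 h (1 lower) had 0 with replicates 1 and 2. The cause was not tested. With 1 library left out, members lower between lines at 8 h ranged from 2 to 5, lower in CTRL cells at 8 h from 1 to 4 and at 24 h from 0 to 1, higher in CTRL cells at 48 h from 8 to 12, lower in inducible cells at 8 h from 0 to 1, higher in inducible cells at 24 h from 0 to 1 and higher in the interaction at 8 h from 0 to 6. Median log2 fold changes between lines ranged from 0.54 to 0.78 at 8 h and from 0.16 to 0.42 at 24 h, and that of CTRL cells at 48 h from 0.30 to 0.48. Members with few counts are limited by depth, since a group with at most 3 counts per library gives a lower bound alone.

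Over all genes, same-numbered libraries had correlations of their deviations from −0.30 to 0.24 (mean 0.013) in 16 pairs of groups. In 0 of these pairs were all correlations over 0.1, although those of CTRL cells at 24 h and 0 h were 0.097, 0.102 and 0.087. Groups at 8, 24 and 48 h were not paired with groups at another of these times. Some same-numbered libraries shared genes that their groups lacked, such as the 10 of CTRL replicate 3 at 0 h and 24 h. A link between same-numbered libraries is therefore not excluded. With the replicate number as a block, members lower in CTRL cells at 8 h were 1, as IFIT2 lost its call (edgeR BH-adjusted p = 0.0158), and HLA-B lost its call in CTRL cells at 48 h (edgeR BH-adjusted p = 0.0124). The block changed no other call of a named member.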
